A study of Homo sapiens with 29 samples.

Results

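DHL4 is an established human line of diffuse large B-cell lymphoma, a tumour of mature B lymphocytes, and this comparison set DHL4 cells kept for 24 h in R406 against DHL4 cells that received the solvent DMSO. R406 is an inhibitor of the tyrosine kinase SYK and was used at 1 µM. The 5 arrays compared, 3 of 24 h R406 and 2 of DMSO analysed here, were taken by their labels from the 29 arrays of the series, and 12165 genes entered the comparison. Further groups used here are DHL4 after 2, 6 and 48 h of R406, each on 3 arrays. A second lymphoma line, DHL6, received DMSO or R406 for 2, 6, 24 or 48 h, each on 3 arrays. All 10 groups entered the fit. Every group grew in the same serum-supplemented RPMI medium, and no group carries a genetic change. Each line is a single line, so differences between lines are differences between DHL4 and DHL6 and not between classes of lymphoma. No culture time is given for the DMSO arrays, so 24 h of R406 and 24 h of culture cannot be told apart here. It is not stated whether replicate arrays represent different cultures, and p-values here therefore measure only how these arrays vary, which may be technical variation.

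The B-cell receptor is a surface antibody coupled to CD79A and CD79B, whose phosphorylated tails recruit SYK. SYK passes the signal through BLNK, BTK, PLCG2 and protein kinase C beta to NF-kB, NFAT and ERK, and through PI3K and AKT, which keep FOXO transcription factors out of the nucleus. Many lymphomas of germinal centre type depend on a low, antigen-independent form of this signal for growth and survival.

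Values are log2 expression as deposited, and a gene was called changed where the adjusted p of limma was below 0.05. Of the 12165 genes, 3593 were called (29.5%), 1585 higher (13.0%) and 2008 lower (16.5%) after 24 h. The rise was at least 2-fold for 670 genes and the fall for 999, and at least 4-fold for 187 and 190. The median change over all genes was 0.03 on the log2 scale, with a median standard error (SE) of 0.169. Of the called genes, 3568 had 24 h and DMSO arrays that did not overlap, against 6112 of all genes. Levels below a log2 value of 4 lay near the floor of the array. From such a DMSO mean 521 genes rose, 186 of them at least 2-fold. To such a 24 h mean 386 fell, 189 at least 2-fold. For these a fold change is a lower bound where the other group lay above 4, and is uncertain where both lay below it. A mean above 4 in a compared group was held by 5428 genes. Fitted alone, 1440 of them rose and 2028 fell, larger shares than over all genes. Shares of all genes are thus a low yardstick for lists made mostly of genes above 4. In bulk RNA, fewer cells that express a gene and less of its RNA per cell cannot be told apart. The replicate arrays correlated at 0.9938 in DMSO and at 0.9901 to 0.9907 after 24 h across genes, and their median levels were 3.34 to 3.35 and 3.41 to 3.43. As a measure of RNA integrity, the ACTB control probe sets at the 3′ end stood above those at the 5′ end by 1.42 to 1.45 in DMSO and by 1.39 to 1.67 after 24 h.

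**Figure D1:**
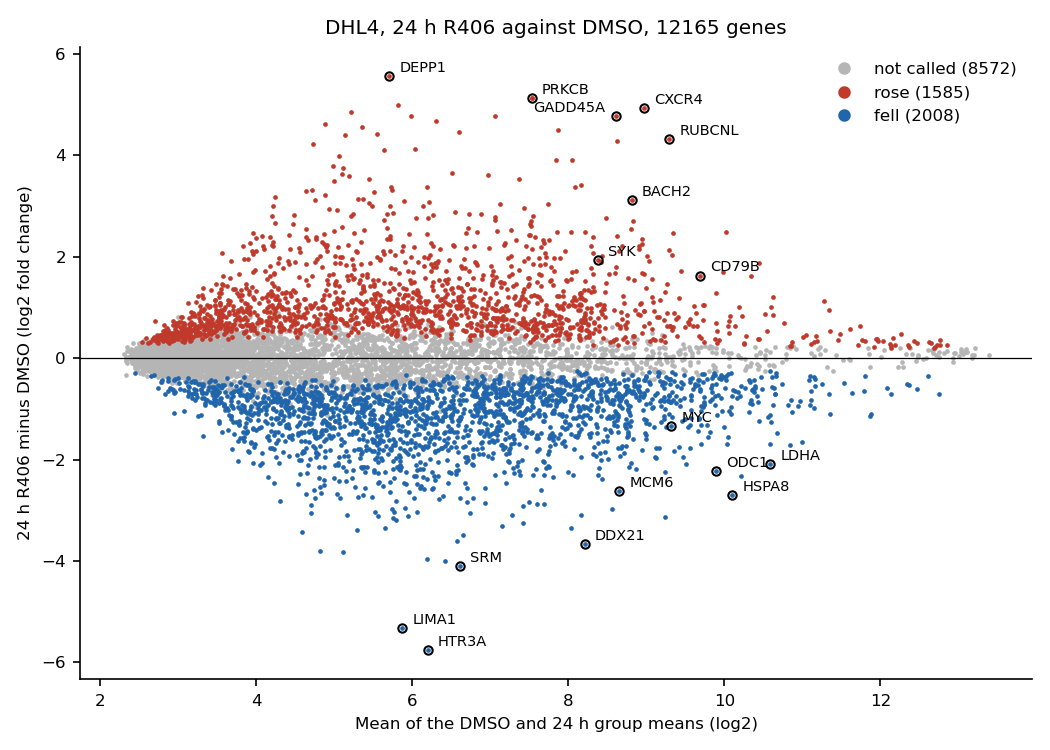
Log2 fold change of 24 h R406 against DMSO in DHL4 for 12165 genes, plotted against the mean of both group means (log2). The 1585 genes that rose are red, the 2008 that fell are blue and the others grey. Circles mark named genes. Rises reach 5.57 (DEPP1) and falls -5.76 (HTR3A).

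The arrays had most measured markers of the labelled cell type. Of 5 measured B-cell markers, 4 lay above 4 (MS4A1, CD79A, CD79B and CD37), as did the 4 measured germinal centre markers BCL6, MME, LMO2 and MYBL1. The other measured B-cell marker, PAX5, lay below 4 in both groups. None of 7 T cell, 5 NK cell, 6 monocyte and 4 epithelial markers reached 4 in DMSO or after 24 h (0 of each list). Their summed linear levels were 48.2 to 52.7 in DMSO and 50.8 to 56.7 after 24 h for T cells, 32.2 to 36.1 and 34.1 to 36.6 for NK cells, and 43.8 to 47.0 and 45.8 to 50.1 for monocytes. The epithelial sums were 24.7 to 28.6 and 26.5 to 29.5. Of 7 fibroblast and endothelial markers, 1 was above 4. This was DCN, a matrix proteoglycan, and its fall took the sum from 368 to 407 in DMSO down to 64.3 to 74.2 after 24 h. In longer lists of these cell types, 1 of 12 T cell, 0 of 9 NK cell, 0 of 12 monocyte, 3 of 14 fibroblast and endothelial and 0 of 7 epithelial genes lay above 4. The T cell gene above 4 was LCK, a SRC family kinase, which fell (-1.09 ± 0.24), and the stromal ones were DCN, THY1 (-2.59 ± 0.16) and PECAM1 (4.56 ± 0.18). Called members were 1 of 9 in the NK cell list (GNLY, 0.30, a call lost under most other settings), and 0 of 12 and 0 of 7 in the monocyte and epithelial lists in limma (0 in both also at an unadjusted p below 0.05).

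The largest rises joined a few signalling genes with genes that were near the floor in DMSO. DEPP1, a FOXO-regulated gene linked to autophagy, stood at 2.88 and 2.95 in DMSO and at 8.50, 8.62 and 8.34 after 24 h. PRKCB, which encodes protein kinase C beta on chromosome 16, went from 5.24 and 4.69 to 10.05, 10.06 and 10.18. CXCR4, the receptor of the chemokine CXCL12, went from 6.69 and 6.32 to 11.53, 11.39 and 11.39. Only called genes whose 24 h and DMSO arrays did not overlap entered this ranking, so that separation is not a finding here. The 3 genes had log2 fold changes of 5.57 ± 0.32, 5.13 ± 0.25 and 4.93 ± 0.13. The highest adjusted p of limma among them was 7.90e-13, for DEPP1. PCDH9, a protocadherin, rose by 5.12 and FCMR, the receptor of IgM, by 4.99. APOD (4.85), a lipid carrier, SATB1 (4.78), a chromatin organiser, HRK (4.77), a death-promoting BCL2 family member, and GADD45A (4.77), a growth arrest gene, followed. CHST15 (4.68), a sulfotransferase, PDE4B (4.61), a cyclic AMP phosphodiesterase, PECAM1 (4.56), an adhesion and inhibitory receptor, TSC22D3 (4.50), also known as the glucocorticoid-induced leucine zipper, MAD1L1 (4.46), a spindle checkpoint protein, and PHYH (4.42), an enzyme of peroxisomal lipid breakdown, completed the 15 largest. Other probe sets of PCDH9 gave 2.66, 0.07 and 0.72, and those of HRK, both below 4, gave 0.81 and 0.24. Other probe sets, which were dimmer, also gave smaller rises for DEPP1 (2.48), TSC22D3 (1.86), PDE4B (1.75, 2.10 and 0.49) and PECAM1 (2.12 and 2.05). Those of CXCR4 (5.98 and 6.17), PRKCB (5.25) and FCMR (4.14) gave rises above 4.

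The largest falls were led by HTR3A, which encodes a serotonin-gated ion channel on chromosome 11. It stood at 9.04 and 9.12 in DMSO and at 3.44, 3.56 and 2.95 after 24 h, a fall to the floor (-5.76 ± 0.16, adjusted p = 9.86e-19, limma). LIMA1, an actin-binding protein, went from 8.73 and 8.35 to 3.42, 3.39 and 2.83 (-5.32 ± 0.23). SRM, the spermidine synthase, went from 8.51 and 8.81 to 3.60, 5.02 and 5.06 (-4.10 ± 0.25), with replicate 1 lower than the others. As for the rises, only called genes whose arrays did not overlap were ranked. HTR3A and LIMA1 ended under 4 on each 24 h array. DCN (-4.00), PLEK (-3.95), a protein kinase C substrate of blood cells, CCDC86 (-3.83), a nucleolar protein, and USP2 (-3.81), a deubiquitinase, came next. The remaining members of the 15 largest falls were DDX21 (-3.66), a nucleolar helicase, PNP (-3.60), an enzyme of purine salvage, NOP16 (-3.49) and RPP40 (-3.43), which act in ribosomal and transfer RNA processing, SLC43A3 (-3.39), a purine base transporter, GRPEL1 (-3.35), a co-chaperone of mitochondrial import, NME1 (-3.34), a nucleoside diphosphate kinase, and GCSH (-3.32), part of the glycine cleavage system. Other probe sets also fell for HTR3A (-4.14), DCN (-3.37, -4.00 and -1.07), PLEK (-2.65), SLC43A3 (-2.61), GRPEL1 (-2.47) and GCSH (-2.73). NOP16 had one that fell (-3.45) and one near the floor that was not called (0.12), and the other USP2 probe set lay near the floor and was not called (-0.01).

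**Figure D2:**
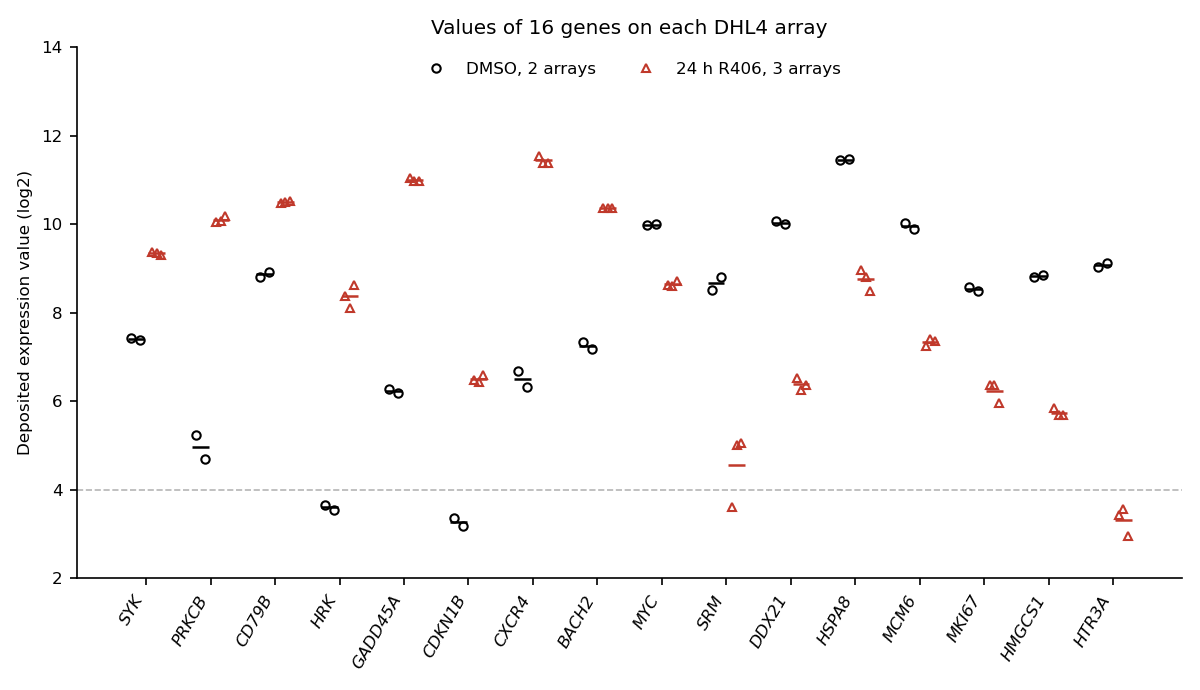
Deposited log2 values of 16 genes on each DHL4 array, with black circles for the 2 DMSO arrays, red triangles for the 3 arrays of 24 h R406 and a bar at each group mean. The dashed line marks a level of 4. In all 16 genes the groups do not overlap. All 16 are called genes, and 3568 of 3593 called genes do not overlap, so that separation is not a finding here. The 24 h arrays of HTR3A lie between 2.95 and 3.56.

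Among the components of B-cell receptor signalling, more genes rose than fell. Of 25 measured transducers, 13 rose and 3 fell (median 0.44, against 0.03 over all genes), and 5 of the rises were at least 2-fold. Without probe sets that can match several transcripts, which leaves fewer genes tested, 5 of 14 rose and 2 fell (median 0.18). SYK, the target of the drug, stood at 7.43 and 7.39 in DMSO and at 9.37, 9.34 and 9.31 after 24 h. Its transcript was thus higher on every treated array (1.93 ± 0.19, a 3.82-fold rise, adjusted p = 1.06e-08, limma), and a further SYK probe set rose by 1.56. CD79B, a signalling chain of the receptor, went from 8.81 and 8.92 to 10.47, 10.49 and 10.52 (1.63 ± 0.11), and CD79A, its partner, rose by 0.90. PRKCB had the largest change of the list. PIK3CD, the lymphocyte PI3K catalytic subunit, rose by 1.53, LYN, a SRC family kinase that starts and dampens the signal, by 0.94, BLNK, the adaptor downstream of SYK, by 0.77, and BTK by 0.44. FYN rose in its brightest probe set (1.76), but its 3 others, all below 4, were not called (-0.07, 0.33 and 0.07). PRKCD, a protein kinase C isoform with inhibitory roles in B cells, fell from 6.75 and 6.95 to 4.21, 4.46 and 5.31 (-2.19 ± 0.29). NFATC1 (-1.36), a transcription factor activated by calcium, and VAV1 (-1.25), an exchange factor, fell as well. PLCG2, the phospholipase that makes the second messengers, was at 9.12 and 8.95 in DMSO and at 9.16, 9.13 and 9.10 after 24 h and was not called (0.10 ± 0.11).

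Negative regulators of the receptor moved both ways, 7 up and 5 down of 19 measured (median 0.21). PTPN6, the tyrosine phosphatase SHP-1, went from 5.84 and 6.50 to 3.49, 3.47 and 3.56 (-2.66 ± 0.25, adjusted p = 3.40e-09, limma), and thus to the floor. CSK, which restrains SRC family kinases, fell by 1.08, and FCGR2B, the inhibitory Fc receptor, by 0.79. PECAM1 went from 3.29 and 2.86 to 7.45, 7.77 and 7.70, CBLB, a ubiquitin ligase, rose by 2.84 and LAIR1, an inhibitory collagen receptor, by 2.19. The number that rose was 4 after centring of array medians, without DMSO replicate 2 and without 24 h replicate 3. In the PI3K and AKT list, 4 of 21 rose and 2 fell (median 0.03), 19.0% and 9.52% against 13.0% and 16.5% of all genes. The risers were PIK3IP1, an inhibitor of PI3K (3.37), TCL1A, a coactivator of AKT (2.49), PPP2R5C, a phosphatase subunit (1.69), and TSC1, a brake on mTOR (1.02). A second PPP2R5C probe set rose by 1.64, while another, at 8.94 in DMSO and 8.72 after 24 h, was not called (-0.22). TRIB3, a pseudokinase, fell (-1.18).

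Genes linked to FOXO transcription factors rose together. Of 25 measured, 19 rose and 2 fell (76.0% and 8.0%, against 13.0% and 16.5% of all genes), with a median of 0.87. With dim genes left out, 16 of 18 rose and 2 fell (median 1.21), against 1440 and 2028 of 5428 genes. GADD45A went from 6.27 and 6.19 to 11.03, 10.98 and 10.98 (4.77 ± 0.26), and CDKN1B, the CDK inhibitor p27, from 3.37 and 3.18 to 6.47, 6.43 and 6.60 (3.23 ± 0.29). FOXO1 itself rose by 1.92 ± 0.13, from 7.93 and 8.20 to between 9.94 and 10.07, and FOXO3 by 1.15. RAG1, a recombinase subunit (2.27), BTG1, an antiproliferative gene (1.87), GADD45B (1.42), KLF6 (1.26), PINK1, a mitochondrial kinase (1.01), SESN1, a stress sensor of the sestrin family (0.90), IL7R (0.87) and CITED2 (0.86) also rose. The 2 members that fell were SOD2, the mitochondrial superoxide dismutase (-1.79), and BNIP3, a mitophagy receptor (-0.75). KLF2, another member, lay below 4 on all 5 arrays and was not called (0.42 ± 0.18).

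In the death-promoting BCL2 family, 4 of 13 rose and 1 fell (30.8% and 7.69%, against 13.0% and 16.5% of all genes, median -0.00). HRK, which binds and blocks survival proteins, went from 3.66 and 3.54 in DMSO to 8.38, 8.11 and 8.62 after 24 h, at least 27.3-fold higher since its DMSO level was near the floor. PMAIP1, also known as NOXA (1.46), BNIP3L (1.67) and BBC3, also known as PUMA (0.87), rose too, and BID, which links death receptors to mitochondria, fell (-1.65). BCL2L11, which encodes BIM, was at 3.74 and 3.91 in DMSO and at 4.21, 3.61 and 3.63 after 24 h, and was not called (-0.00 ± 0.20). Of 13 survival genes of the BCL2, IAP and PIM families, 5 rose and 2 fell (38.5% and 15.4%, median 0.33). PIM1 (2.54) and PIM2 (2.21) encode survival kinases, BIRC2 (1.11) encodes an IAP, and BIRC5 (-1.55) encodes survivin, a mitotic protein. CFLAR, which blocks caspase 8, rose in its brightest probe set (1.18). The brightest probe set of MCL1 was not called (0.17 ± 0.09), while another fell by 1.07.

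MYC, which drives ribosome production and growth, was at 9.98 and 10.00 in DMSO and at 8.63, 8.61 and 8.71 after 24 h. The fall of -1.34 ± 0.08 was 2.53-fold (adjusted p = 2.42e-12, limma), and no array of one group reached the other. Among its partners, MXI1 (2.27) and MXD3 (1.85), which oppose MYC at its sites, rose, as did MLXIP (1.55), a glucose-responsive partner of MLX, while MLX fell (-1.10). In this network 5 of 13 rose and 2 fell (38.5% and 15.4%, against 13.0% and 16.5% of all genes, median 0.05).

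Genes that make ribosomes and their precursors fell almost throughout. Of 36 ribosome biogenesis and nucleolar genes, 33 fell and 0 rose in limma (0 also at an unadjusted p below 0.05, median -1.74), 26 of them at least 2-fold. DDX21 went from 10.07 and 10.00 to 6.52, 6.25 and 6.37 (-3.66 ± 0.13, a 12.7-fold fall), and DKC1, the pseudouridine synthase, from 9.0 and 9.08 to 6.25, 6.03 and 6.22 (-2.87 ± 0.12). NOP56 (-2.0), NCL, or nucleolin (-1.76), FBL, or fibrillarin (-0.74), and NPM1, or nucleophosmin (-0.65), show the range within the list. POLR1B (0.46), RRP9 (-0.39) and RCL1 (-0.42) were not called. The brightest probe set of TSR1 fell by 2.74, while 1 of its others was not called (0.57). Of 22 nucleotide synthesis genes, 20 fell and 1 rose (median -1.62). PAICS, a purine synthesis enzyme, went from 10.08 and 10.01 to 7.05, 7.04 and 7.12 (-2.97 ± 0.16). A second PAICS probe set fell by 3.78 and another was not called (-0.27). PFAS (-3.03) and PPAT (-2.18) of the same pathway and CTPS1 (-2.69), which makes CTP, fell too. The member not called was DHODH (-0.22), which lay below 4 in both groups.

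Polyamine enzymes, which lie close to MYC in many growth programmes, fell in 5 of 13 cases and rose in 1 (median -0.33). SRM, AMD1 (-3.05) and SMS (-1.94) act in polyamine synthesis. ODC1, the first enzyme of that synthesis, was among the brightest genes named here and went from 11.02 and 10.98 to 8.80, 8.76 and 8.75 (-2.23 ± 0.16). SAT1, which starts polyamine breakdown, rose by 1.68, with other probe sets at 1.64, 1.23 and 0.23. OAZ1, the antizyme, was not called (0.08 ± 0.08).

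Protein synthesis genes split. Of 31 tRNA synthetases and translation factors, 25 fell and 0 rose in limma (2 at an unadjusted p below 0.05, median -1.16). IARS1, an isoleucyl-tRNA synthetase, went from 10.43 and 10.45 to 8.61, 8.54 and 8.32 (-1.95 ± 0.11), EIF2S1 fell by 2.17 and EIF4E, the cap-binding protein, by 2.03. EEF2, an elongation factor near the top of the scale, was not called (-0.16 ± 0.09). Among cytosolic ribosomal proteins 15 of 34 rose and 0 fell in limma (0 also at an unadjusted p below 0.05, median 0.17), with RPS9 highest at 0.57 ± 0.08. These rises were small, the array medians moved up as well, and the number was 5 after median centring (median 0.09) and 10 after quantile normalization. It was 5 and 6 without DMSO replicate 1 and 2, 9 without 24 h replicate 2, and 3 with the compared groups alone in the fit. None of the 34 was called lower under these settings (0 in each).

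Chaperones and protein turnover were lower as well. Of 18 heat shock chaperones, 15 fell and 0 rose in limma (0 also at an unadjusted p below 0.05, median -1.60). HSPA8, the constitutive cytosolic HSP70, went from 11.44 and 11.46 to 8.97, 8.81 and 8.48 (-2.69 ± 0.12), and its mitochondrial relative HSPA9 from 8.19 and 8.13 to 5.44, 5.45 and 5.33 (-2.75 ± 0.21). HSP90AB1 fell by 2.08, HSPE1 by 2.37 and TRAP1 by 2.47. Of 13 genes of the CCT chaperonin and its helper prefoldin, 10 fell and 1 rose (median -0.94), with TCP1 at -1.81 and CCT5 at -1.72. Of 26 proteasome genes, 20 fell and 2 rose (median -0.75), with PSMD12 at -1.48 and PSMB5, a catalytic subunit, at -1.19. Of 22 genes of ER chaperones and the unfolded protein response, 14 fell and 4 rose (median -0.71). HSPA5, the ER HSP70, went from 10.59 and 10.52 to 8.51, 8.51 and 8.38 (-2.09 ± 0.10), SDF2L1 fell by 2.44 and TXNDC5 by 2.25, whereas XBP1, the transcription factor of this response, rose by 1.65 ± 0.18. SERP1 rose by 0.24 in its brightest probe set and fell by 0.81 and 0.89 in its others.

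DNA replication genes fell in 40 of 45 cases and rose in 1 (median -1.49), 32 of them at least 2-fold. MCM6, a subunit of the replicative helicase, went from 10.03 and 9.90 to 7.25, 7.41 and 7.36 (-2.63 ± 0.14, a 6.18-fold fall, adjusted p = 1.99e-13, limma), and MCM4 from 9.04 and 8.74 to 6.15, 5.76 and 5.97. CDC45, which joins that helicase, fell by 2.37, LIG1, the replicative ligase, by 2.20, RFC3, part of the clamp loader, by 2.14, and PCNA, the clamp, by 1.97. The member that rose was TIMELESS (0.72), a fork protection protein. Mitosis and G2/M genes fell in 32 of 47 cases and rose in 1 (median -0.80), 18 of them at least 2-fold. MKI67, the proliferation antigen, went from 8.58 and 8.49 to 6.36, 6.36 and 5.97 (-2.30 ± 0.12), and PLK1, a mitotic kinase, from 7.25 and 7.27 to 5.43, 5.34 and 5.67 (-1.78 ± 0.28). CCNA2, or cyclin A2, fell by 1.86, MAD2L1 of the spindle checkpoint by 2.11 and PBK by 1.93. CCNB2, or cyclin B2, was not called (-0.21 ± 0.17).

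The promoters of these lists were searched for known cell cycle motifs, whose shares differed between the lists. E2F factors drive S phase genes, and the DREAM and B-MYB complexes act on G2/M genes through the cell cycle homology region. Promoters came from RefSeq (GRCh38.p14), with 9709 measured genes matched, and the 250 bases before each annotated start were searched on both strands. The E2F site, searched as TTTNNCGC, was found in 15 of 39 DNA replication promoters (38.5%), 5 of 39 mitosis promoters (12.8%) and 8.49% of measured genes. The cell cycle homology region, searched as TTTGAA, was found in 18 of 39 mitosis promoters (46.2%), 1 of 39 DNA replication promoters (2.56%) and 9.68% of measured genes. The NF-Y box CCAAT was in 76.9% and 56.4% of the mitosis and DNA replication promoters and in 35.8% of measured genes. Over the 27305 promoters of the table these shares were 5.93%, 13.6% and 33.0%. The E-box CACGTG is the sequence MYC and its MXD opponents bind. It was in 2 of 30 ribosome biogenesis promoters (6.67%), 3 of 16 heat shock promoters (18.8%) and 8.29% of measured genes. Among the lists searched its share was highest in the FOXO-linked genes, most of which rose (6 of 23, 26.1%). By direction, the E-box was in 10.2% of promoters of genes that fell, 9.18% of those that rose and 7.64% of those not called. The FOXO element TGTTTAC was in 2 of 23 FOXO-linked promoters (8.7%) and 2.13% of measured genes. Matches of 1 motif may overlap each other, and a match describes letters, not a bound site. The following lines give 60 bases of 7 promoters of genes that fell, 5′ to 3′ on the strand of the gene, with motif matches in capitals: E2F sites of MCM6 (chr2:135876496-135876555, minus strand), PCNA (chr20:5126648-5126707, minus) and RFC3 (chr13:33818068-33818127, plus), cell cycle homology regions of PLK1 (chr16:23678829-23678888, plus) and MKI67 (chr10:128126424-128126483, minus), and E-boxes of SRM (chr1:11060185-11060244, minus) and HSPA9 (chr5:138575402-138575461, minus).
MCM6: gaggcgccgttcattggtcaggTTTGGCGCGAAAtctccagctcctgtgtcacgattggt
PCNA: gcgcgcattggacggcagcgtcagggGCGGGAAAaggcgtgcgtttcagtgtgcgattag
RFC3: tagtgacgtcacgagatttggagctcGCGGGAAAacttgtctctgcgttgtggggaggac
PLK1: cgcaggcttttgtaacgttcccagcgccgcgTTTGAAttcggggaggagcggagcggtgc
MKI67: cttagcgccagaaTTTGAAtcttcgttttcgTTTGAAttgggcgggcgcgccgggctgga
SRM: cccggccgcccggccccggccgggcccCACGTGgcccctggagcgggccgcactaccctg
HSPA9: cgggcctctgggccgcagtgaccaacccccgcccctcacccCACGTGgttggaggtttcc
In MCM6 the capitals join overlapping matches on opposite strands, which start 90 and 86 bases before the annotated start, and in MKI67 the matches start 47 and 29 bases before it. Those of PCNA, RFC3, PLK1, SRM and HSPA9 start 59, 55, 29, 199 and 19 bases before it.

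Cell cycle entry genes moved both ways. Of 24 G1 cyclins, CDKs and CDK inhibitors, 5 rose and 7 fell (20.8% and 29.2%, against 13.0% and 16.5% of all genes, median -0.14). CDK4, the kinase of cyclin D, went from 8.94 and 8.89 to 6.13, 6.29 and 5.80 (-2.84 ± 0.12). CCNE2, or cyclin E2, fell by 1.94, while RBL2, a pocket protein of quiescent cells (1.30), and CCNG2 (1.69) rose beside CDKN1B. CCND2, or cyclin D2, lay below 4 in both groups and was not called (-0.09 ± 0.17). Of 15 histone genes, 3 rose and 2 fell (20.0% and 13.3%, against 13.0% and 16.5% of all genes, median 0.09). The risers H2BC5 (2.30), H2BC12 (2.22) and H2AC6 (1.77) belong to a large family of near-identical genes and are uncertain.

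Many lipid synthesis genes fell. In the cholesterol synthesis and uptake list 15 of 22 fell and 1 rose (median -1.10). HMGCS1, which makes the precursor of mevalonate, went from 8.81 and 8.84 to 5.84, 5.68 and 5.69 (-3.09 ± 0.16, an 8.53-fold fall). DHCR7, the last enzyme of the pathway, went from 7.17 and 7.48 to 4.13, 3.97 and 4.42 (-3.15 ± 0.23). SQLE, squalene epoxidase, fell by 1.86 ± 0.12 and INSIG1, a sterol sensor that holds SREBP in the ER, by 0.82 ± 0.14, whereas INSIG2 rose by 0.86. SREBF2, which encodes the transcription factor of the pathway, was not called (-0.36). The sterol element TCACNCCAC was found in 1 of 20 promoters of the list (5.0%) and in 0.824% of measured genes, and the NF-Y box in 65.0% of them. In fatty acid synthesis and desaturation 11 of 21 fell and 1 rose (median -0.56). Without probe sets that can match several transcripts 5 of 13 fell (median -0.07), and with dim genes left out the median was -1.03. SCD, the stearoyl-CoA desaturase, went from 9.64 and 9.79 to 6.65, 6.53 and 6.68 (-3.10 ± 0.14), FASN fell by 2.48 to the floor and ACLY by 1.53. Of 8 sterol efflux genes, 3 rose and 0 fell in limma (0 also at an unadjusted p below 0.05, median 0.36), namely APOD, ABCA1, a cholesterol exporter (2.83 ± 0.39), and MYLIP, a ligase for the LDL receptor (2.02).

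Central metabolism and mitochondria followed the same direction. Of 22 glycolysis genes, 12 fell and 1 rose (median -0.55), and without probe sets that can match several transcripts 3 of 12 fell (median -0.35). LDHA, lactate dehydrogenase A, went from 11.66 and 11.61 to 9.54, 9.56 and 9.53 (-2.09 ± 0.12). GPI fell by 2.26 and ENO1 by 1.52, while PFKP was not called (-0.06 ± 0.15). Of 23 genes of mitochondrial import and matrix proteins, 22 fell and 0 rose in limma (0 also at an unadjusted p below 0.05, median -1.38). PHB1, or prohibitin, fell by 2.00 and MRPL12, of the mitochondrial ribosome, by 1.69. TOMM40, the import channel, fell in its brightest probe set (-2.75), while its others, near the floor, gave 0.01, 0.31 and -0.13. Of 18 TCA cycle genes, 13 fell and 0 rose in limma (0 also at an unadjusted p below 0.05, median -0.65), DLST by 3.11 and DLAT by 2.18. Of 31 oxidative phosphorylation genes, 19 fell and 4 rose (median -0.48), with ATP5MC1 at -2.15 and CYCS, or cytochrome c, at -1.68. Of 12 NRF2 targets, 6 fell and 0 rose in limma (0 also at an unadjusted p below 0.05, median -0.45), with TXN, or thioredoxin, at -1.33.

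Amino acid supply genes were also lower. Of 14 genes of serine, one-carbon and asparagine synthesis, 12 fell and 0 rose in limma (0 also at an unadjusted p below 0.05, median -1.47). ASNS, the asparagine synthetase, went from 9.94 and 9.99 to 7.85, 7.74 and 7.76 (-2.18 ± 0.10). MTHFD1, of folate metabolism, went from 7.58 and 7.41 to 4.90, 4.52 and 3.75 (-3.11 ± 0.20), and CBS fell by 2.46 to the floor. Of 17 ATF4 stress genes, 7 fell and 3 rose (median 0.02, and -0.67 with dim genes left out). ATF5 fell by 2.51 and EIF4EBP1, a brake on translation, by 2.24, while CEBPB rose by 1.19. Of 14 amino acid transporters, 6 fell and 1 rose (42.9% and 7.14%, against 16.5% and 13.0% of all genes, median -0.21). SLC7A5, a leucine transporter, fell by 2.22 and SLC7A1, an arginine transporter, by 1.92, while SLC38A2, a glutamine transporter, rose by 2.72 ± 0.19.

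**Figure D3:**
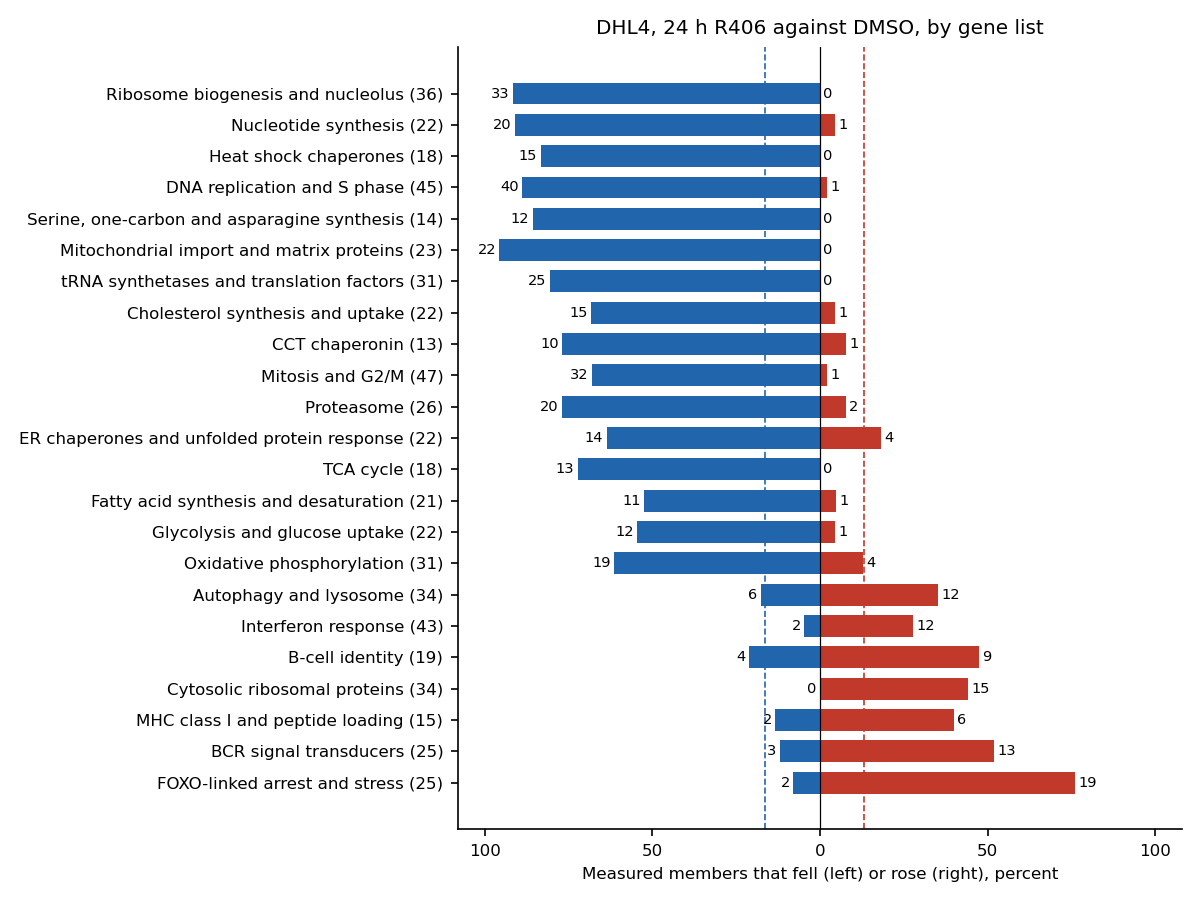
Percent of measured members of 23 gene lists that fell (blue, to the left) or rose (red, to the right) in DHL4 after 24 h R406. Numbers at the bars are counts of genes, and the number measured stands after each name. Dashed lines mark the shares over all genes, 16.5% lower and 13.0% higher, which include genes below 4 in both groups. FOXO-linked genes rose in 19 of 25 cases, and ribosome biogenesis genes fell in 33 of 36.

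The choice of probe sets and dim genes bore on some of these lists. Without probe sets that can match several transcripts, 11.1% of 8507 genes rose and 13.0% fell, and each list had fewer members tested. Ribosome biogenesis genes then fell in 18 of 21 cases, DNA replication genes in 25 of 31, mitosis genes in 17 of 29 and cholesterol genes in 10 of 16, and FOXO-linked genes rose in 11 of 16. Heat shock chaperones fell in 6 of 9 cases and rose in 1 (median -0.87, against -1.60). Of 20 NF-kB genes 4 rose and 4 fell (8 and 4 in the main fit). Among 12 p53 targets 3 rose and 3 fell (8 and 3 in the main fit). For 21 autophagy and lysosome genes the numbers were 5 and 4 (12 and 6 in the main fit). The median of the survival genes was then 0.14, and those of the sterol efflux (-0.06), ATF4 (-0.18), G1 (0.06) and MHC class II (-0.07) lists had the opposite sign. With dim genes left out the medians were larger for the interferon (0.94), NF-kB (0.59), TNF family (1.06) and survival (0.76) lists, lower for ERK feedback (-1.56) and polyamine enzymes (-0.72), and of opposite sign for homing genes (-0.38) and G-protein regulators (-0.22).

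B-cell and germinal centre genes included large rises. Of 19 B-cell identity genes, 9 rose and 4 fell (median 0.16). CD37, a tetraspanin, went from 7.86 and 7.77 to 9.99, 10.22 and 10.00 (2.26 ± 0.10), and CD52 (1.28) and CD40 (1.19) rose. MS4A1, which encodes CD20, went from 11.40 and 11.34 to 9.05, 9.0 and 9.07 (-2.33 ± 0.10, a 5.03-fold fall), and its other probe set fell by 2.36. PAX5, the master regulator of B-cell identity, lay below 4 in both groups and was not called (0.08). Of 19 germinal centre genes, 7 rose and 2 fell (median 0.11). BACH2, a repressor that restrains plasma cell differentiation, went from 7.34 and 7.17 to 10.36, 10.37 and 10.37 (3.11 ± 0.16), and MME, which encodes CD10, from 7.44 and 7.39 to 9.86, 9.83 and 9.80 (2.42 ± 0.13). POU2AF1, a B-cell coactivator (1.21), BCL7A (1.81) and ITPKB (1.48) rose. LMO2, a cofactor of germinal centre B cells, fell from 6.35 and 6.01 to 4.61, 5.14 and 5.19 (-1.20 ± 0.19). BCL6, the master repressor of germinal centre B cells, went from 9.85 and 9.82 to 9.54, 9.53 and 9.44. Its arrays did not overlap, but it was not called (-0.33 ± 0.14, adjusted p = 0.0777, limma). BCL6 was called lower with the DHL4 arrays alone (adjusted p = 0.0332, limma) and with the mean of its probe sets (-0.63, adjusted p = 0.00042, limma). Median centring, a filter on dim genes, array weights and another variance setting also gave a call, and the other settings with 1 value per gene did not. A second, dimmer BCL6 probe set fell from 5.18 to 4.24 (-0.93, adjusted p = 9.29e-05, limma). Of 13 plasma cell genes, 2 rose (CD27, 2.47, and XBP1) and 3 fell (median -0.07), among them FKBP11 (-1.91). These shares were 15.4% and 23.1%, against 13.0% and 16.5% of all genes.

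Homing and adhesion genes changed in both directions. Of 21 homing genes, 5 rose and 6 fell (23.8% and 28.6%, against 13.0% and 16.5% of all genes, median 0.15). Beside CXCR4, the receptor CXCR5, which guides B cells to follicles, rose by 1.69, and S1PR4 by 1.30. The integrins ITGB7 (6.72 and 6.62 against 3.94, 4.13 and 4.27) and ITGB2 (6.11 and 6.40 against 3.81, 4.70 and 3.60) fell by 2.56 and 2.22, and ITGA4 by 1.18 and ITGAL by 1.14. Of 29 cytoskeleton and adhesion genes, 11 fell and 5 rose (median -0.23). KANK2, a cytoskeletal adaptor, went from 6.48 and 6.50 to 10.74, 10.69 and 10.88 (4.28 ± 0.16), with its other probe set at 0.76. RHOH, a GTPase of blood cells, rose by 2.61, and PHACTR1, an actin regulator, fell by 2.34 to the floor. Of 17 RGS and G-protein regulators, 3 rose and 2 fell (17.6% and 11.8%, near the 13.0% and 16.5% of all genes, median 0.08). RGS1, which dampens chemokine receptors, rose from 3.22 and 2.91 to 6.66, 6.46 and 6.01 (3.31 ± 0.23), and RGS19 fell by 1.25.

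Each of the antigen presentation and immune response lists held members that rose and members that fell. Of 17 MHC class II genes, 6 rose and 3 fell (35.3% and 17.6%, against 13.0% and 16.5% of all genes, median 0.04). HLA-DMA rose by 1.53 and HLA-DMB by 1.21, which together load peptides, and IFI30, a lysosomal reductase for antigens, went from 10.73 and 10.87 to 7.54, 7.72 and 7.76 (-3.12 ± 0.13). Of 15 MHC class I genes, 6 rose and 2 fell (median 0.38), and without probe sets that can match several transcripts 2 of 10 rose and 2 fell (median 0.20). HLA-E rose by 1.34. HLA-B (1.05), HLA-C (1.07) and HLA-G (1.12) share near-identical sequence and are uncertain, and another HLA-C probe set above 4 was not called (0.05). Of 43 interferon response genes, 12 rose and 2 fell (median 0.14), and 16 lay above 4 in either group. OAS1, an antiviral enzyme, went from 3.99 and 3.95 to 8.08, 8.13 and 8.07 (4.12 ± 0.31), SP110 rose by 2.88, ISG20 by 2.39, TRIM22 by 2.38 and IRF7 by 2.12, while ISG15 fell by 0.86. MX1 (0.04), IFIT1 (-0.13) and IFI44L (0.14), typical genes of the same response chosen after their values were seen, were not called. Of 30 NF-kB genes, 8 rose and 4 fell (26.7% and 13.3%, median 0.16). LTB, or lymphotoxin beta, led the rises and went from 6.12 and 6.06 to 9.93, 10.09 and 9.97 (3.91 ± 0.11). NFKBIA, the inhibitor of NF-kB, rose by 1.56. REL was not called (0.18 ± 0.20). Of 19 TNF family genes, 8 rose and 1 fell (median 0.30), among them TNFRSF21 (2.39). Without 24 h replicate 1 the number that rose was 5.

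Of 25 immediate early genes, 4 rose and 4 fell (16% each way, near the 13.0% and 16.5% of all genes, median 0.02). Without probe sets that can match several transcripts, 0 of 15 rose (limma, 2 at an unadjusted p below 0.05) and 2 fell. SRF fell by 2.40 and its target IER2 by 2.24, whereas ID2 (2.18) and ID3 (2.16), inhibitors of E proteins, rose. EGR1 lay below 4 on all 5 arrays and was not called (-0.07 ± 0.33). Of 18 ERK feedback genes, 3 fell and 1 rose (16.7% and 5.56%, against 16.5% and 13.0% of all genes, median -0.01), and 3 lay above 4. DUSP2 fell by 1.88 and DUSP7 by 1.56, and DUSP6, below 4, was not called (-0.13 ± 0.16). Of 21 TGF-beta, SMAD and ID genes, 8 rose and 1 fell (median 0.35), among them SMAD1, which went from 2.69 and 2.75 to 5.56, 5.83 and 5.77 (3.0 ± 0.31), and SKIL (2.16). Of 22 p53 targets, 8 rose and 3 fell (36.4% and 13.6%, median 0.15). GADD45A, SAT1 and XPC (1.54) were among the former and TRIAP1 (-2.04) among the latter. Of 34 autophagy and lysosome genes, 12 rose and 6 fell (35.3% and 17.6%, median 0.07). RUBCNL, or Pacer, a regulator of autophagosome maturation, went from 7.09 and 7.17 to 11.44, 11.44 and 11.47 (4.32 ± 0.13). TPP1 (2.02), CTSB (1.96) and CTSA (1.82) encode lysosomal hydrolases, and CTSC, another protease, fell (-1.90). Without probe sets that can match several transcripts TPP1 was not called (0.47, adjusted p = 0.0566, limma). TFEB, a transcription factor of lysosomal genes, fell by 1.43. Of 10 aryl hydrocarbon receptor targets, 3 rose and 0 fell in limma (0 also at an unadjusted p below 0.05, median 0.01). CYP1A1, the classic target, went from 2.77 and 3.36 to 4.66, 6.03 and 5.38 (2.29 ± 0.29), and TIPARP rose by 1.64. Of 7 kynurenine pathway genes, 3 fell (42.9%) and 0 rose in limma (0 also at an unadjusted p below 0.05, median -0.50). KMO (-2.73 ± 0.44), an enzyme of tryptophan breakdown, led the falls. Without 24 h replicate 3 the number that fell was 2 (median -0.27), and without probe sets that can match several transcripts 1 of 6 (median -0.21). TXNIP, a glucose-regulated arrestin, rose by 0.66 ± 0.18, a call lost without DMSO replicate 2 (0.50, adjusted p = 0.131, limma).

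The other DHL4 times place the 24 h arrays in sequence. All times share the same DMSO arrays, so the changes are given side by side. MYC stood at -1.31 at 2 h, -1.33 at 6 h, -1.34 at 24 h and 0.19 at 48 h. DDX21 stood at -1.18, -2.09, -3.66 and -0.93, HMGCS1 at -1.95, -2.14, -3.09 and -2.17, and MCM6 at -0.00, -0.47, -2.63 and -0.53. CXCR4 was at 3.45, 3.52, 4.93 and 1.86, HRK at 0.48, 1.93, 4.77 and 0.44, and DEPP1 at 0.10, 0.05, 5.57 and -0.17. MYC thus had nearly the same value at 2, 6 and 24 h, whereas DEPP1 lay near its DMSO level at the other 3 times. Called genes against DMSO numbered 1153 at 2 h, 1555 at 6 h and 892 at 48 h. The difference itself was tested between R406 times, without the DMSO arrays. From 6 to 24 h, 2712 genes were called (22.3%), 1065 higher and 1647 lower. Mitosis genes fell in 46 of 47 cases between 6 and 24 h, DNA replication genes in 40 of 45 and proteasome genes in 22 of 26, and 0 members of these lists rose (limma, 0 also at an unadjusted p below 0.05). The median of the mitosis list against DMSO was 0.25 at 2 h, 0.54 at 6 h, -0.80 at 24 h and -0.70 at 48 h. Among genes called at 24 h, the 6 largest rises from 6 h were those of DEPP1 (5.52), APOD (4.71), PRKCB (3.86), PHYH (3.82), NOL9, a nucleolar kinase (3.82), and CD69, an early activation marker (3.74). The 6 largest falls were those of SRM (-2.98), MTHFD1 (-2.84), NME1 (-2.73), DSCC1 (-2.60) and SMC2 (-2.60), which act on replicating and condensing chromosomes, and DEPTOR (-2.52), an inhibitor of mTOR. From 24 to 48 h, 3055 genes were called (25.1%), 1749 higher and 1306 lower. Over that step 33 of 36 ribosome biogenesis genes rose and 0 fell (limma, 0 also at an unadjusted p below 0.05). Of 45 DNA replication genes 36 rose and 2 fell, and of 47 mitosis genes 8 rose and 5 fell. DCN (4.25), HTR3A (4.09) and SRM (3.93) rose most from 24 to 48 h, and DEPP1 (-5.74), APOD (-4.88) and TSC22D3 (-4.85) fell most among genes called at 24 h.

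**Figure D4:**
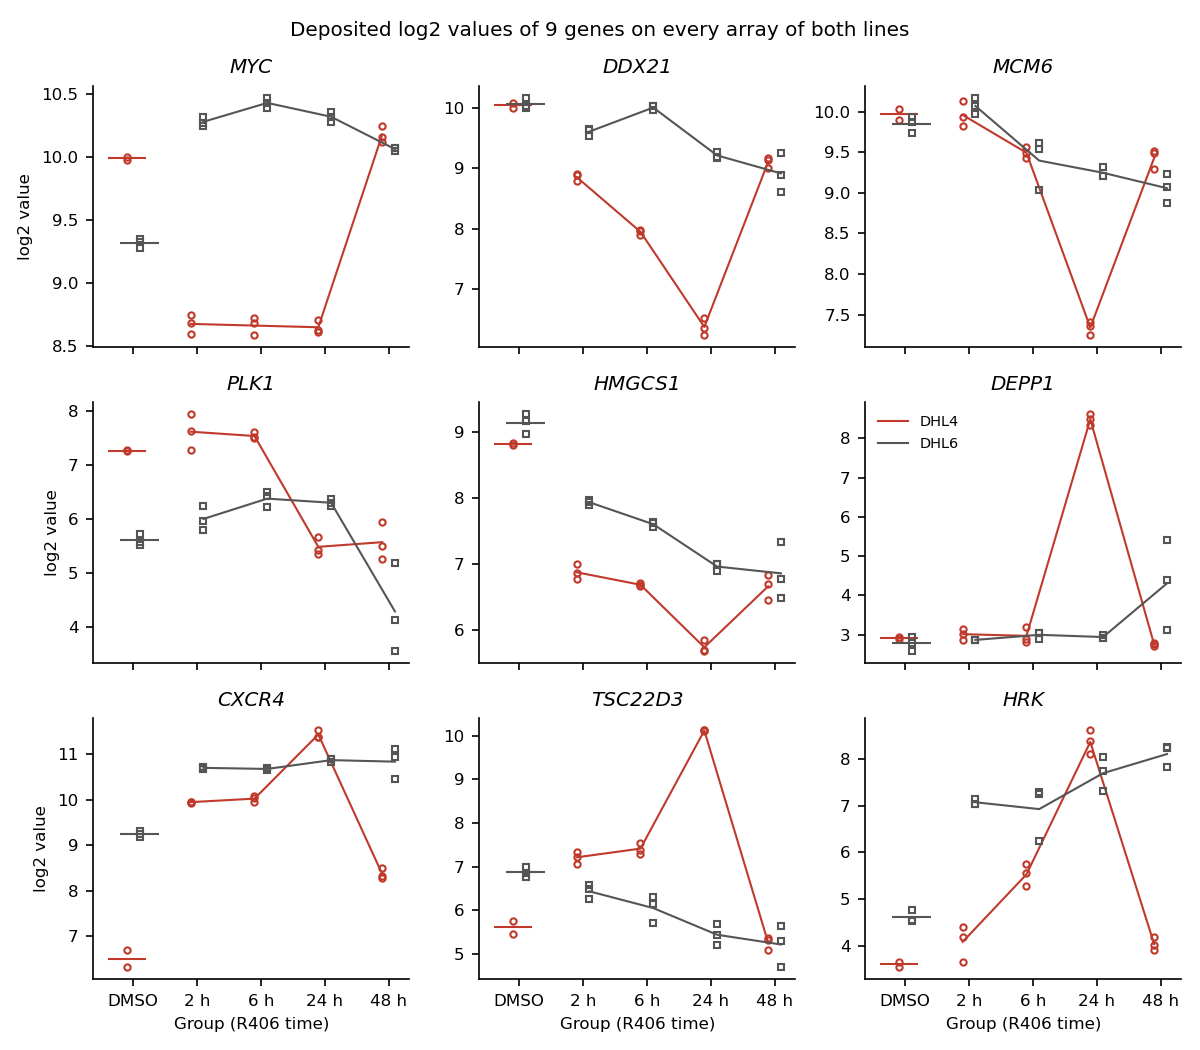
Deposited log2 values of 9 genes on every array of DHL4 (red circles) and DHL6 (grey squares), by group. Horizontal bars at DMSO and lines through the R406 times are group means, and vertical scales differ between genes. In DHL4, DEPP1 reaches 8.34 to 8.62 at 24 h and lies below 4 at the other times, and MYC is at 8.61 to 8.71 at 24 h and 10.12 to 10.25 at 48 h.

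The 24 h response was also set against that of DHL6, in which 1748 genes were called against its own DMSO arrays (14.4%). Of the genes called in DHL4, 1174 were called with the same sign in DHL6 and 88 with the opposite sign. The difference of the 2 responses was called for 1989 genes (16.4%), with the DHL6 response higher for 1138 and lower for 851. Differences between lines were not called for TCL1A (2.49 in DHL4, 2.56 in DHL6, adjusted p of the difference = 0.905, limma), MME (2.42 and 2.39, adjusted p = 0.970, limma) and CD79B (1.63 and 1.51, adjusted p = 0.737, limma). SYK rose by 1.93 and 2.61, a difference of 0.68 that was not called (adjusted p = 0.0788, limma). PRKCB rose by 5.13 and 3.73, and HRK by 4.77 and 3.08, and these differences were called (adjusted p = 0.00422 and 0.000692, limma). Ribosome biogenesis genes fell in 33 of 36 cases in DHL4 and in 17 in DHL6, and for 27 of the 36 the DHL6 response was higher by the test of the difference. The same held for 25 of 45 DNA replication genes, with 1 the other way, for 21 of 47 mitosis genes and for 9 of 22 cholesterol genes, with 2 the other way. Of the 25 FOXO-linked genes, the DHL6 response was lower for 14 and higher for 2, and 6 rose in DHL6.

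MYC went opposite ways in the 2 lines. In DHL6 its DMSO arrays lay at 9.28 to 9.35 and its 24 h arrays at 10.28 to 10.36, a rise of 1.00, against the fall of 1.34 in DHL4 (adjusted p of the difference = 1.38e-13, limma). TSC22D3 rose by 4.50 in DHL4 and fell by 1.42 in DHL6 (a difference of -5.92 ± 0.27). DEPTOR fell by 3.19 in DHL4 and rose by 1.00 in DHL6 (4.19 ± 0.19). ID3 (2.16 and -1.33), SAT1 (1.68 and -0.93) and HLA-DMB (1.21 and -0.75) likewise had called changes of opposite sign and a called difference. FCMR (4.99 and -0.44), PDE4B (4.61 and -0.11), PECAM1 (4.56 and 0.24), VPREB1, a surrogate light chain (4.40 and 0.07), CD69 (4.22 and 0.03), LITAF (3.61 and -0.52) and LTB (3.91 and 0.08) rose in DHL4 and were not called higher in DHL6. For HTR3A (-5.76 and -0.03), DCN (-4.00 and 0.12) and USP2 (-3.81 and -0.03), the DHL6 DMSO level was already below 4 (3.10, 2.78 and 2.70), so a fall there could not be measured. The ACTB 3′ minus 5′ difference was 1.31 to 1.57 on the DHL6 DMSO arrays and 1.77 to 1.92 on its 24 h arrays, and its part in the difference between lines was not tested.

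**Figure D5:**
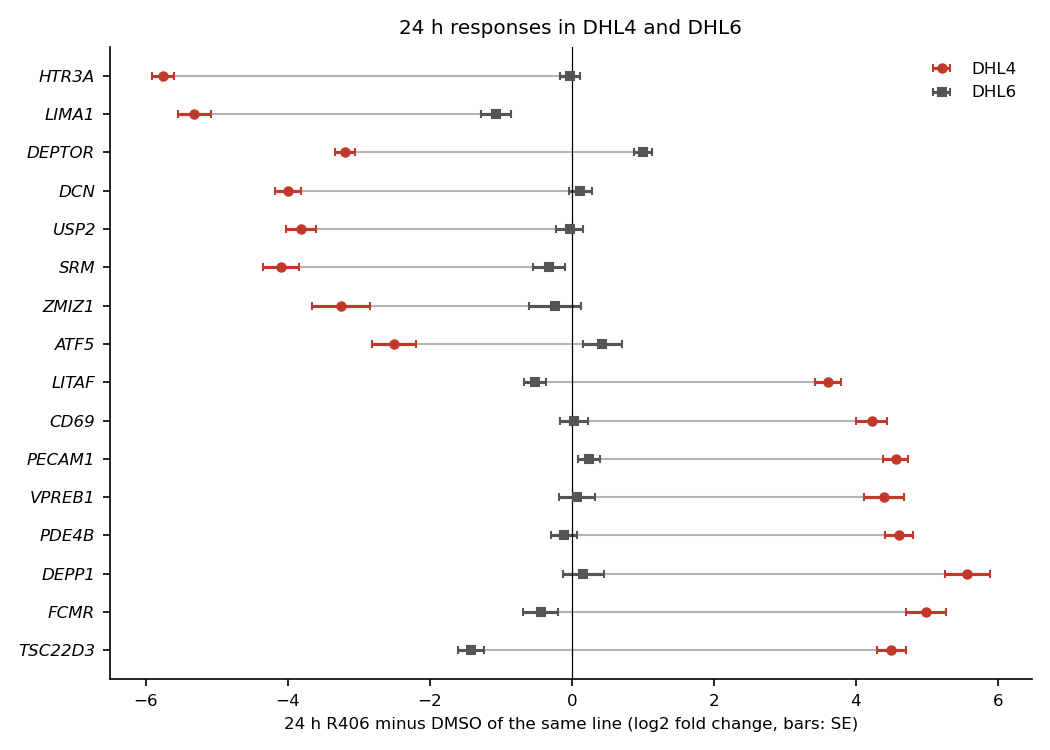
Log2 fold change of 24 h R406 against DMSO in DHL4 (red circles) and DHL6 (grey squares) for the 16 genes with the largest called differences between lines, bars being SE. TSC22D3 lies at 4.50 and -1.42, and HTR3A at -5.76 and -0.03.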

How the data were processed

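The authors deposited RMA-summarised log2 expression values of 29 Affymetrix human gene arrays (RMA per the submitters' processing notes, its version not given in the sources used here). Arrays were grouped by their labels. Of 22277 probe sets, 62 were controls, 19724 had 1 gene symbol in the platform annotation, 568 several and 1923 none. For each of 12165 genes, the brightest of its single-symbol probe sets (by the average of the 29 arrays) stood for the gene. A model of 10 group means was fitted to all 29 arrays in limma (version 3.58.1, R version 4.3.3, lmFit and eBayes, Benjamini-Hochberg over 12165 genes, called at an adjusted p below 0.05), and differences of groups, the difference of the responses of both lines included, were tested in that fit. Their number, 2 and 3 arrays, limits the precision. No arrays held identical values.

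Named genes are the 15 largest called rises and falls with arrays apart and a mean above 4 in a group, up to 5 called members of each list by size of change and its brightest uncalled member, the largest differences between lines (8 each way) and between times (6 each way), and 24 genes listed by name. Further list members named in the text were picked with their values in view. The members and lists were chosen with earlier results of these data known.

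On simulated data the test recovered 22%, 88%, 100% and 100% of genes changed by 0.5, 1, 2 and 4 on the log2 scale, and 11 of 166 calls were false. The simulation changed 50 genes of each size among 12165, a far smaller share than the 29.5% called here. Its recovery and share of false calls therefore need not hold for the actual comparison. Alternatives were other samples in the fit, quantile normalization, median centring, a filter on dim genes, other rules for probe sets, other variance settings, array weights, a replicate block and each array left out. Promoters came from the RefSeq table (GRCh38.p14).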

Additional observations from a re-analysis of the deposited data

Results flagged for a closer look

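The 24 h responses of DHL6 and DHL4 differed by the test of the difference itself for 1989 genes, and 16 named genes with large differences are given here as the DHL6 response minus the DHL4 response in log2 units. The response was lower in DHL6 for TSC22D3 (-5.92), FCMR (-5.43), DEPP1 (-5.41), PDE4B (-4.72), VPREB1 (-4.34), PECAM1 (-4.32), CD69 (-4.19) and LITAF (-4.13). It was higher in DHL6 for HTR3A (5.73), LIMA1 (4.25), DEPTOR (4.19), DCN (4.12), USP2 (3.78), SRM (3.77), ZMIZ1 (3.01) and ATF5 (2.94). ZMIZ1, a transcriptional coregulator, fell by 3.25 in DHL4 and was not called in DHL6 (-0.24), and ATF5, a stress transcription factor, fell by 2.51 and was not called (0.43). LIMA1 fell in both lines, by 5.32 and 1.07. SRM was not called in DHL6 (-0.32).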

How the results depend on the processing

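Leaving out each array of the compared groups in turn gave 2884 to 3408 called genes for 24 h against DMSO, 1532 to 1881 for the difference between lines, 2310 to 2483 for 24 against 6 h and 2656 to 2832 for 48 against 24 h. Without probe sets that can match several transcripts, which left 8507 genes tested, the counts were 2050, 1068, 1523 and 1763. With every probe set tested on its own they were 5250, 2824, 3942 and 4420. The other settings gave 3446 to 3965, 1879 to 2616, 2659 to 3423 and 2972 to 3713. The split for 24 h against DMSO was 1749 higher and 1872 lower after quantile normalization and 1302 and 2232 after median centring. Without the probe sets that can match several transcripts, CFLAR (-0.06), DSCC1 (0.27) and TOMM40 (0.31) had the opposite sign and were not called, because a dimmer probe set then stood for the gene. Of 311 named genes 254 were called. Of these, 152 were tested under every alternative that gives 1 value per gene, and 133 stayed called with their sign under each. The other 102 were left out by at least 1 filter, and 93 stayed called where they were tested. Same-numbered arrays did not deviate together (r of -0.0514 and -0.0272 between the compared groups), so the numbers do not pair the arrays, and a replicate block gave 3446 calls, 3358 of them shared. Genes near the floor of the array, below a level of 4, have changes that the signal over background limits.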
